A study of Mus musculus with 6 samples.

Results

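Matricellular proteins are secreted into the extracellular matrix, where they bind receptors, growth factors and structural fibres more than they bear load themselves. The 10 genes described here encode osteopontin (Spp1), periostin (Postn), tenascin-C (Tnc), fibronectin (Fn1), SPARC (Sparc), hevin (Sparcl1) and 4 CCN proteins (Cyr61, Ctgf, Wisp1 and Wisp2, which newer naming calls Ccn1, Ccn2, Ccn4 and Ccn5). They were taken by gene name from the 54532 genes of the count table, and all 10 were among the 14774 genes with enough counts to be tested. The set was chosen on measured values, with the difference between HINT2 transgenic and control hearts already known, so that difference is given for them as a description and supports nothing.

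RNA of the left ventricle was sequenced from 3 HINT2-TG mice (TG) and 3 non-transgenic mice (NTG), 1 library per heart, 4 weeks after aortic banding (AB). All were male mice operated on at 8 to 10 weeks of age. The TG label is HINT2CTG-Myh6Cre, meaning that a CAG-HINT2 transgene was combined with Myh6-driven Cre and induced with tamoxifen, so the overexpression was directed to cardiomyocytes. The NTG label is C57BL/6J, and whether these controls carried Cre or received tamoxifen was not given in the sources used here, so an effect of HINT2 cannot be told apart from one of Cre, of tamoxifen or of both. Sham-operated hearts were not analysed here, and both groups had the banded aorta in common.

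In an overloaded heart, wall stress and cytokines such as TGF-beta switch resident fibroblasts to a matrix-secreting state, and macrophages enter the tissue. Activated fibroblasts are a known source of periostin, fibronectin, tenascin-C and CCN2, and macrophages are a known source of osteopontin. CCN1 and CCN2 are also textbook targets of the YAP and TEAD factors, which respond to mechanical load.

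Total counts per library were 14863568 to 17581220 in NTG and 14944465 to 17235802 in TG, and levels are given as CPM, the counts of a gene scaled to a fixed library size, after TMM normalization, with factors between 0.929 and 1.073. Whether the 3 hearts of a group came from separate litters was not stated, so SD values measure the spread between these hearts. The SE of a log2 fold change covers the same hearts and comes from the edgeR fit, which moderates each gene's spread by that of all genes. Hint2 itself had 793 to 859 counts in TG, 545 and 559 in NTG 2 and NTG 3, and only 12 in the library labelled NTG 1. That count stands far below the other controls, so the value without NTG 1 is given for each gene and list of related genes. TG 3 and NTG 1 also held the most RNA of the atrial genes Myl7, Myl4 and Sln, whose summed level was 167 CPM in TG 3, 67.4 CPM in NTG 1 and 2.17 to 29.1 CPM in the others.

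The windows directly upstream of the start site are shown for Postn, Spp1 and Tnc, for which every TG heart lay below every NTG heart, and for Cyr61, for which the groups overlapped. A window was found for 5 of the 10 genes, these 4 and Sparc, whose listed start site lay 3103 bases inside the gene from its 5′ end in the count table, and none was used for Fn1, Sparcl1, Ctgf, Wisp1 or Wisp2. The sequences are 250 bases from RefSeq on GRCm38.p6, read 5′ to 3′ on the strand of the gene, at chr3:54360857-54361106 (plus strand) for Postn, chr5:104434861-104435110 (plus) for Spp1, chr4:64047016-64047265 (minus) for Tnc and chr3:145649986-145650235 (minus) for Cyr61. Capitals mark matches to TATAAA, the core of the TATA box, and to CATTCC, the core that TEAD factors bind.

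Postn: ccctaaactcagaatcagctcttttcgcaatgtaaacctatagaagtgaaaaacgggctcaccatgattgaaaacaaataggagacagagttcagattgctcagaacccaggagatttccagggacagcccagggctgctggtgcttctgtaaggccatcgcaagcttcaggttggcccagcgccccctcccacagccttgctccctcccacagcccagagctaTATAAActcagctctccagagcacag
Spp1: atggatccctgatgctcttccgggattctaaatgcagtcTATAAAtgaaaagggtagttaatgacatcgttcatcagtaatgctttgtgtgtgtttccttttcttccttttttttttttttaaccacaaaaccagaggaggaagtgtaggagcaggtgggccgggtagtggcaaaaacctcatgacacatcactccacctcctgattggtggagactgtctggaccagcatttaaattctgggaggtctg
Tnc: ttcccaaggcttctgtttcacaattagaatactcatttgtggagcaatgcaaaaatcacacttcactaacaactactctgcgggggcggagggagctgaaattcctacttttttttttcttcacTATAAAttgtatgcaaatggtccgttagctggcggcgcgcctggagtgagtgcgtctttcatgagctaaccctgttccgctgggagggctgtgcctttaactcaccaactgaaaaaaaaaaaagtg
Cyr61: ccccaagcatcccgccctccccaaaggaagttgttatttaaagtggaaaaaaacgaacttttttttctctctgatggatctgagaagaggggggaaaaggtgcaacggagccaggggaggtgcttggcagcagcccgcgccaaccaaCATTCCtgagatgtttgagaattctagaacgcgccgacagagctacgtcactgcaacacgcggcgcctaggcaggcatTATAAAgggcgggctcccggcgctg

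A TATAAA match lay 26 to 21 bases before the start site in Postn and 25 to 20 before it in Cyr61, but 211 to 206 before it in Spp1 and 126 to 121 before it in Tnc. Cyr61 was the only one of the 5 windows with CATTCC, at 103 to 98 bases before the start. Searched on both strands, TATAAA was found in 12.4% and CATTCC in 12.6% of 32851 such windows of the mouse genome. The AP-1 motif TGANTCA, held by 6.75% of the windows, and the CArG box of serum response factor, held by 1.47%, were in none of the 5. These are matches of letters, and nothing was measured on factor binding.

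The study's own RT-PCR primers are shown for Fn1 and Ctgf, since they fix which part of each transcript that assay reads. On GRCm38 the Fn1 pair spans 107 bases at chr1:71597541-71597647 on the minus strand, inside coding exon 40 of 46 of transcript Fn1-201, and both primers matched 6 of the 17 annotated transcripts. The Ctgf pair spans 87 bases at chr10:24597523-24597609 on the plus strand, in the last of 5 exons of Ccn2-201, and matched 2 of 3 transcripts. Neither product crosses an intron.
Fn1 forward: ccctgggtatgacaccgaaa
Fn1 reverse: ttgtccgcctaaagccatgt
Ctgf forward: agacctgtgcctgccattac
Ctgf reverse: acgccatgtctccgtacatc

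The 10 genes were all lower on average in TG than in NTG hearts, from 1.16-fold for Sparcl1 to 5.91-fold for Wisp1. Periostin, osteopontin, WISP1 and WISP2 formed the strongest differences, at 5.17-fold to 5.91-fold, followed by fibronectin at 3.57-fold. Ctgf, Tnc and Sparc lay between 1.75-fold and 2.34-fold, and Sparcl1 and Cyr61 at 1.16-fold and 1.21-fold. The groups overlapped for Ctgf, Sparc, Sparcl1 and Cyr61. In 6 of the 10 (Spp1, Postn, Tnc, Fn1, Wisp1 and Wisp2) all TG hearts lay below all NTG hearts, and 12.3% of the genes tested were separated in that direction. None of the 10 was separated in the other direction, where 11.2% of all genes were. In 8 of the 10, the fitted log2 fold change was below -0.5, against 10.2% of all genes.

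**Figure D1:**
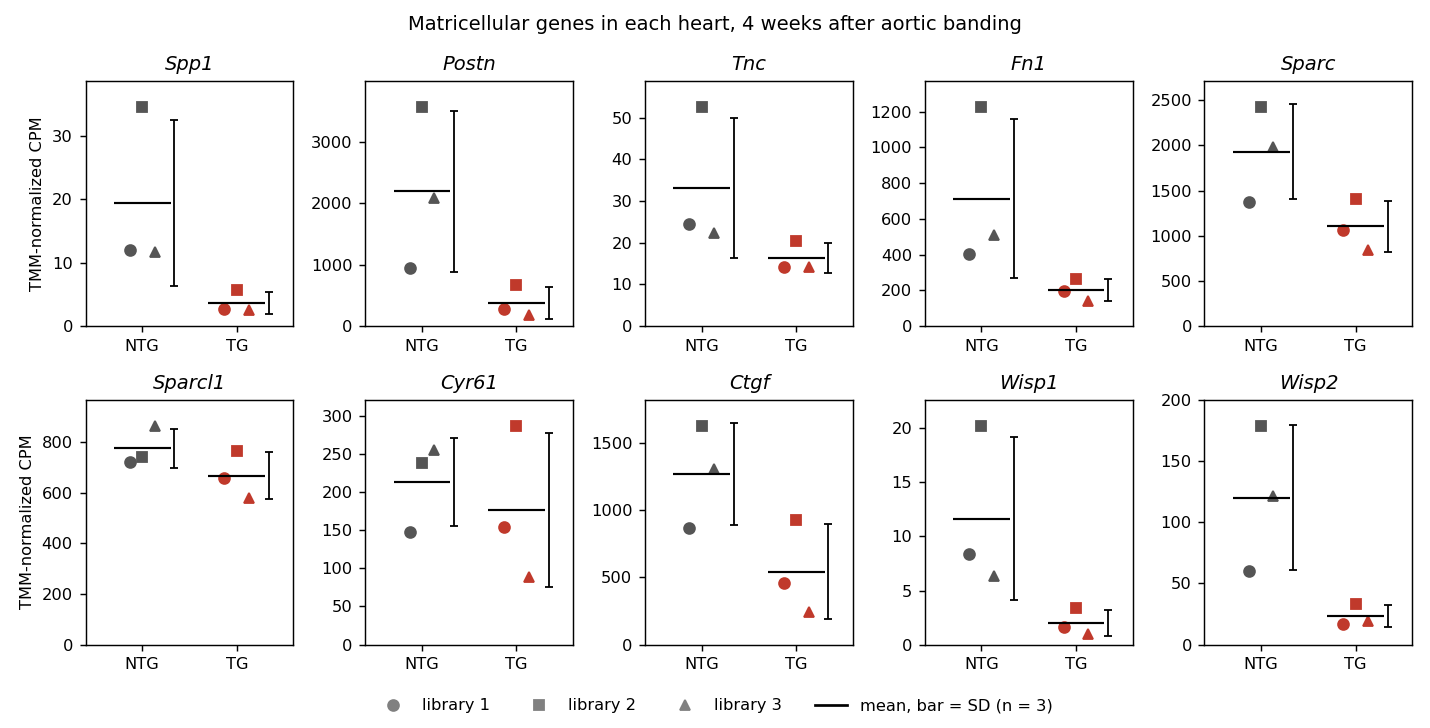
Level of each of the 10 genes in each heart, in TMM-normalized CPM on linear axes from 0, for 3 NTG (grey) and 3 TG (red) libraries, with the mean (line) and SD (bar). The square (library 2) is the highest TG point in all 10 panels and the highest NTG point in 8, and the groups overlap for Sparc, Sparcl1, Cyr61 and Ctgf.

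Of the adhesive glycoproteins, periostin helps collagen to mature and is the classical product of the activated cardiac fibroblast. Postn (ENSMUSG00000027750, chr3:54361109-54391037, plus strand) was at 942, 3560 and 2080 CPM in NTG 1, 2 and 3, and at 281, 671 and 178 CPM in TG 1, 2 and 3. The highest TG heart lay below the lowest NTG heart, yet NTG hearts differed 3.78-fold among themselves. The means were 2194 ± 1313 CPM in NTG and 377 ± 260 CPM in TG (SD, n = 3 each), a log2 fold change of -2.54 (SE 0.652), which was -2.91 without NTG 1, -2.0049 without NTG 2 and -3.26 without TG 2.

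Fibronectin is the scaffold on which other matrix proteins assemble and is bound by integrins. Fn1 (ENSMUSG00000026193, chr1:71585520-71653200, minus strand) had 404, 1225 and 509 CPM in NTG hearts and 199, 262 and 139 CPM in TG hearts. NTG 2 stood far above the other 2 controls, and the groups did not overlap. Its log2 fold change was -1.83 (SE 0.46), but -1.19 without NTG 2 and -2.12 without NTG 1. The count sums all its splice forms, of which the annotation lists 9 coding transcripts, so plasma and extra-domain forms cannot be told apart.

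Tenascin-C loosens cell adhesion and is laid down at sites of injury. Tnc (ENSMUSG00000028364, chr4:63959785-64047015, minus strand) was much less abundant, with 24.6, 52.5 and 22.4 CPM in NTG and 14.3, 20.5 and 14.1 CPM in TG. NTG 1 and NTG 3 lay just above TG 2, and only NTG 2 stood clear of it. The log2 fold change was -1.03 (SE 0.352), but -0.53 without NTG 2 and -1.20 without NTG 1.

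Osteopontin is a phosphorylated integrin and CD44 ligand. Spp1 (ENSMUSG00000029304, chr5:104435118-104441050, plus strand) was a low-count gene in these ventricles, with 176, 650 and 201 counts in NTG and 37, 99 and 41 counts in TG. In CPM this was 12.0, 34.5 and 11.6 against 2.67, 5.62 and 2.53. NTG 2 again had the highest level, and the other controls were close to each other and above the highest TG heart. The means of 19.4 ± 13.1 CPM and 3.61 ± 1.75 CPM (SD, n = 3 each) gave a log2 fold change of -2.41 (SE 0.548), or -1.70 without NTG 2 and -2.67 without NTG 1.

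SPARC binds collagen and takes part in its processing outside the cell, and hevin is its closest relative. Sparc (ENSMUSG00000018593, chr11:55394500-55423183, minus strand) was at 1375, 2423 and 1986 CPM in NTG and 1063, 1404 and 844 CPM in TG. TG 2 lay slightly above NTG 1, and the other TG hearts lay below all controls. Its log2 fold change was -0.80 (SE 0.259), and was -1.0015 without NTG 1 and -0.61 without NTG 2.

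Sparcl1 (ENSMUSG00000029309, chr5:104079111-104113733, minus strand) held 721, 741 and 866 CPM in NTG and 659, 764 and 579 CPM in TG. Its log2 fold change was -0.22 (SE 0.15), and it was -0.27 without NTG 1 and -0.13 without NTG 3 or without TG 3. The NTG hearts differed least for this gene, with an SD of 10.1% of the mean, NTG 2 only 1.03-fold above NTG 1 and NTG 3 the highest. The ratio of Sparc to Sparcl1, both as CPM per kb of gene length, was 1.48, 2.54 and 1.78 in NTG. In TG it was 1.25, 1.43 and 1.13, and this ratio was higher in every control heart than in any TG heart. It too is a description, since the pair came from genes chosen for their difference and separation over other gene pairs was not counted.

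CCN proteins are modular ligands of integrins and of growth factors. Ctgf (ENSMUSG00000019997, chr10:24595442-24598683, plus strand) is the family member most tied to fibrosis, and it had 867, 1626 and 1305 CPM in NTG and 459, 926 and 241 CPM in TG. TG 2 lay above NTG 1, and TG hearts differed 3.84-fold, the largest ratio of highest to lowest within TG among the 10. As a share of the TG mean, the SD was larger for Postn (69.1%) than for Ctgf (64.6%). The log2 fold change was -1.22 (SE 0.487), or -1.86 without TG 2 and -1.44 without NTG 1. It was nearer to 0 without TG 3, at -0.87, and without NTG 2, at -1.004.

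Cyr61 (ENSMUSG00000028195, chr3:145646976-145649981, minus strand), an immediate early gene, had 148, 238 and 255 CPM in NTG and 154, 288 and 89.3 CPM in TG. The highest of all 6 hearts was TG 2 and the lowest TG 3, so the groups overlapped throughout. Its log2 fold change was -0.27 (SE 0.425), and over the fits without 1 library it ran from -0.81 without TG 2 to 0.044 without TG 3, with -0.48 without NTG 1 and -0.13 without NTG 3. Per kb, the ratio of Ctgf to Cyr61 was 4.13, 4.82 and 3.61 in NTG and 2.10, 2.27 and 1.91 in TG. These ratios did not overlap, although the levels of both genes did. The pair was picked from genes chosen for their difference. Separation over other gene pairs was not counted, so the ratios are given as a description.

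WISP1 promotes the growth of fibroblasts in culture. Wisp1 (ENSMUSG00000005124, chr15:66891320-66923201, plus strand) had 123, 382 and 110 counts in NTG and 22, 59 and 16 in TG. In CPM, the values were 8.39, 20.3 and 6.36 against 1.59, 3.35 and 0.986, and no TG heart reached a control. It was the scarcest of the 10, with a log2 fold change of -2.55 (SE 0.588), or -1.88 without NTG 2 and -2.74 without NTG 1.

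WISP2 lacks the C-terminal module that the other CCN proteins carry. Wisp2 (ENSMUSG00000027656, chr2:163820861-163833146, plus strand) was at 59.9, 179 and 121 CPM in NTG and 17.1, 33.2 and 19.5 CPM in TG. The lowest control was well above the highest TG heart. Its log2 fold change of -2.37 (SE 0.443) stayed between -2.72 and -1.96 whichever library was left out, and was -2.69 without NTG 1.

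**Figure D2:**
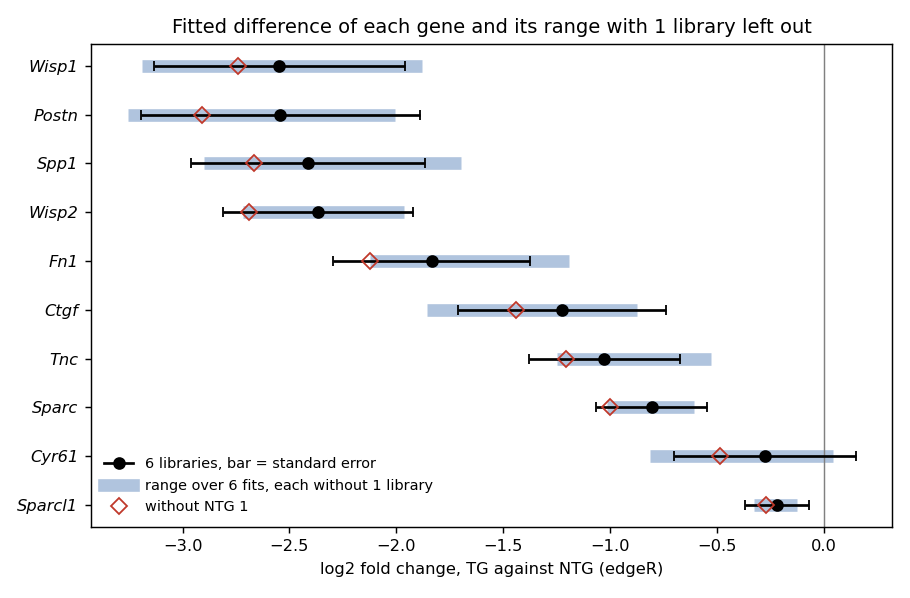
Fitted log2 fold change of TG against NTG for each of the 10 genes (edgeR), with its standard error (black bar), the range over 6 fits that each left out 1 library (blue band) and the value without NTG 1 (open diamond). The band of Cyr61 crosses 0, reaching 0.044, and those of the other 9 genes stay below it.

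By the quasi-likelihood test of edgeR with Benjamini-Hochberg adjustment over all genes, 0 of the 10 were called lower (a log2 fold change past 0.5 in size with an adjusted p under 0.05), and 0% of all genes were. At an unadjusted p under 0.05, 8 of the 10 were lower (all but Sparcl1 and Cyr61) beside 9.76% of all genes, and 0 were higher beside 8.83%. DESeq2 called 7 lower (Spp1, Postn, Tnc, Fn1, Sparc, Wisp1 and Wisp2) beside 2.4% of all genes, and 0 higher beside 1.54%. The limma-voom fit called 0 of the 10 and 0 of all genes tested. Without the library labelled NTG 1, edgeR called Sparc and Wisp2 lower, beside 2.85% of the genes then tested. The 7 calls of DESeq2 became 4 without NTG 2 (beside 0.507% of the genes then tested), 3 without TG 1 (0.501%) and 2 without TG 3 (0.445%).

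The median log2 fold change of the 10 was -1.53, where that of all genes tested was -0.0081. It was -1.78 without NTG 1, -1.10 without NTG 2 and -1.97 without TG 2. All these values rest on a list that was chosen for its difference.

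Within each group, the same hearts tended to hold the highest or the lowest levels of the 10 genes. NTG 2 was the highest of the 6 libraries for 8 genes and NTG 1 the lowest control for 7. In TG, the highest library was TG 2 for all 10 and the lowest was TG 3 for 9. TG 2 exceeded NTG 1 for Sparc, Sparcl1, Cyr61 and Ctgf. Without NTG 1 the TG hearts lay below all controls for 8 of the 10, and without TG 2 for 9, where 2 against 3 libraries gave such separation in 23.6% and 21.2% of all genes tested.

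As a share of all counts, the 10 genes took 0.450%, 1.08% and 0.739% in NTG 1, 2 and 3, and 0.265%, 0.447% and 0.203% in TG 1, 2 and 3. NTG 1 and TG 2 were nearly equal in this sum. Their composition still differed, since Postn made up 20.6%, 35.3% and 29.0% of the summed counts of the 10 in NTG and 9.86%, 15.3% and 8.44% in TG.

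Levels can be set against each other between genes only per length, so CPM was divided by the gene length of the deposited table. In NTG, Sparc led at 509 ± 139 CPM per kb, then Ctgf at 443 ± 133, Sparcl1 at 264 ± 26.7, Postn at 252 ± 151 and Cyr61 at 106 ± 28.5 (SD, n = 3). Wisp2 at 62.4 ± 30.9 and Fn1 at 61.0 ± 38.2 followed, with Spp1 at 11.8 ± 7.94, Tnc at 4.27 ± 2.16 and Wisp1 at 2.10 ± 1.35 CPM per kb at the end. Only Ctgf and Sparcl1, Fn1 and Spp1, and Spp1 and Tnc were neighbours whose ranges over the 3 controls did not overlap.

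In TG the order was Sparc at 291 ± 74.4 CPM per kb, Sparcl1 at 227 ± 31.6, Ctgf at 189.5 ± 122, Cyr61 at 87.7 ± 50.1, Postn at 43.3 ± 29.9 and Fn1 at 17.1 ± 5.28. Wisp2 at 12.1 ± 4.51, Spp1 at 2.19 ± 1.06, Tnc at 2.10 ± 0.469 and Wisp1 at 0.355 ± 0.221 CPM per kb came after it. Postn stood above Cyr61 in the controls and below it in TG hearts. Neighbours without overlap were Wisp2 and Spp1, and Tnc and Wisp1.

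Relative to Sparc per kb, Postn was at 0.298, 0.640 and 0.456 in NTG and 0.115, 0.208 and 0.0917 in TG. Fn1 relative to Sparc was at 0.0954, 0.164 and 0.0831 against 0.0606, 0.0606 and 0.0534, and Spp1 relative to Sparc at 0.0201, 0.0327 and 0.0134 against 0.00576, 0.00920 and 0.00688. In each of these 3 ratios, every control heart lay above every TG heart. The pairs were picked from genes chosen for their difference, and separation over other gene pairs was not counted, so this is a description.

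Over the 6 libraries, the mean of the standardized log2 levels of the 10 genes was 0.152, 1.23 and 0.686 in NTG and -0.799, 0.0158 and -1.29 in TG. The 8 other genes whose log2 CPM followed this profile most closely were Pqlc3 (Pearson r 0.9996), Loxl1 (0.9982), Emp1 (0.9977), Fstl3 (0.9975), Ltbp3 (0.9973), Fstl1 (0.9971), Stx12 (0.9970) and Sema3d (0.9968). These are descriptions over 6 libraries that share the same 2 groups, picked as the closest of many genes. Loxl1, an enzyme that cross-links elastin, went from 262.6 ± 53.4 CPM in NTG to 144 ± 44.9 CPM in TG (SD, n = 3 each), and Ltbp3, which holds latent TGF-beta in the matrix, from 173 ± 42.3 to 91.7 ± 27.5 CPM. Stx12, an endosomal membrane fusion protein, had the same shape with a log2 fold change of only -0.18.

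Of 22 other matricellular genes, 14 were tested, and 10 of these were lower and 4 higher in TG, with a median log2 fold change of -0.49, which was -0.60 without NTG 1, -0.29 without NTG 2 and -0.32 without TG 3. edgeR called 0, with 5 lower and 1 higher at an unadjusted p under 0.05 (all genes 9.76% and 8.83%), and DESeq2 called Comp, Fstl1 and Thbs3 lower (all genes 2.4%). Without NTG 1, edgeR called Thbs3 alone (all genes 2.85%). Comp, a pentameric thrombospondin of cartilage and tendon, was at 171, 544 and 308 CPM in NTG and 37.5, 99.9 and 28.7 CPM in TG, with a log2 fold change of -2.62 (SE 0.608). Fstl1, a secreted relative of SPARC, was at 519, 1094 and 840 CPM against 306, 498 and 220 CPM. Thbs4 was at 335, 655 and 452 CPM against 43.7, 211 and 42.2 CPM. In TG, 4 of the 14 lay below all controls, these 3 among them, and 1 above, beside 12.3% and 11.2% of all genes, while Thbs3 overlapped between the groups.

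Beside Fstl1, other near relatives of the 10 genes were looked up whatever their values. Nov, the remaining CCN gene tested, was at 5.93, 4.72 and 8.38 CPM in NTG and 9.01, 9.26 and 9.92 CPM in TG, with a log2 fold change of 0.57 (SE 0.221) in the other direction, with every TG heart above every control, that was not called by edgeR (adjusted p = 0.231). Wisp3 had at most 5 counts in a library and was not tested. Tgfbi, the relative of periostin, had 60.2, 93.2 and 68.3 CPM against 53.7, 62.9 and 60.5 CPM, and Smoc2, a SPARC relative, 206, 202 and 226 CPM against 183, 221 and 165 CPM, and both overlapped between the groups.

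The ligands act through integrins, syndecans and scavenger receptors on the cell surface. Of 21 tested of 22 listed integrins, syndecans and other receptors, 17 were lower and 4 higher, with a median of -0.36, which was -0.55 without NTG 1 and -0.18 without NTG 2. edgeR called 0, or 3 without NTG 1 (Itgb5, Itgav and Sdc2, beside 2.85% of all genes). At an unadjusted p under 0.05, 7 were lower and 0 higher (all genes 9.76% and 8.83%), and DESeq2 called 1 lower, Itgb5 (all genes 2.4%). Itgb5 and Itgav, which pair into a receptor of periostin, osteopontin and CCN proteins, were at 254, 406 and 338 CPM against 159, 229 and 164 CPM, and at 57.5, 87.9 and 67.7 CPM against 44.2, 56.1 and 42.7 CPM. Sdc1, a heparan sulfate carrier, was at 19.4, 29.7 and 20.5 CPM against 16.1, 15.6 and 10.7 CPM. The log2 fold changes were -0.85 (SE 0.208), -0.58 (SE 0.174) and -0.72 (SE 0.218). In TG, 4 of the 21 receptors lay below all controls, these 3 among them, and 0 above, beside 12.3% and 11.2% of all genes.

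Among 21 regulators of the TGF-beta, YAP and SRF pathways, 15 were lower and 6 higher, with a median of -0.13, which was -0.16 without NTG 1, -0.086 without NTG 2, -0.20 without TG 2 and -0.034 without TG 3. edgeR called 0, or Tgfbr1 alone without NTG 1 (all genes 2.85%), with 5 lower and 1 higher at an unadjusted p under 0.05 (all genes 9.76% and 8.83%). DESeq2, beside 2.4% of all genes, called lower the ligands Tgfb2, with 41.7, 62.4 and 61.7 CPM against 21.4, 36.1 and 19.2 CPM, and Tgfb3, with 60.3, 73.0 and 63.9 CPM against 38.8, 52.2 and 31.8 CPM. It also called the receptor Tgfbr1, with 70.9, 110.5 and 70.0 CPM against 43.6, 52.5 and 48.4 CPM. Their log2 fold changes were -1.11 (SE 0.270), -0.68 (SE 0.178) and -0.80 (SE 0.187), and every TG heart lay below every control for each. Over the list, 4 of 21 were separate in this direction and 2, Srf and Lats2, in the other, beside 12.3% and 11.2% of all genes.

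The 20 other targets of YAP and TEAD, all tested, had 15 lower and 5 higher and a median of -0.11, which was -0.14 without NTG 1 and -0.055 without TG 3. edgeR called 0, with 5 lower and 1 higher at an unadjusted p under 0.05 (all genes 9.76% and 8.83%). Ccdc80, Igfbp3 and Myof were called lower by DESeq2 (all genes 2.4%) and also by edgeR without NTG 1 (all genes 2.85%). Ccdc80, a secreted matrix protein, was at 215, 401 and 282 CPM against 122, 170 and 140 CPM, and Igfbp3, an IGF carrier, at 69.6, 431 and 189 CPM against 56.4, 53.3 and 35.1 CPM. Rbms3, an RNA-binding protein, was at 24.3, 38.5 and 29.5 CPM against 21.2, 23.3 and 16.4 CPM. In TG, 3 of the 20 targets (these 3) lay below all controls and 1 above, beside 12.3% and 11.2% of all genes. Myof, a membrane repair protein, overlapped, at 31.2, 63.9 and 48.65 CPM against 21.9, 33.4 and 24.7 CPM.

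Of 16 proteases and modifying enzymes that act on these proteins, 15 were tested, with 14 lower, 1 higher and a median of -0.59, or -0.75 without NTG 1. edgeR called 0, but 5 without NTG 1 (Mmp14, Ctsb, Adam12, Adamts5 and Plat, beside 2.85% of all genes). At an unadjusted p under 0.05, 11 were lower and 1 higher (all genes 9.76% and 8.83%), and DESeq2 called Mmp14, Ctsk and Ctsb lower (all genes 2.4%). Mmp14, a membrane collagenase, was at 61.7, 106.9 and 85.6 CPM against 42.5, 59.2 and 38.0 CPM. The cathepsins Ctsk and Ctsb were at 19.0, 25.3 and 17.9 CPM against 9.22, 15.4 and 8.57 CPM, and at 707, 1017 and 813 CPM against 541, 611 and 573 CPM. In TG, 6 of the 15 lay below all controls, these 3 among them, and 1, the plasminogen activator Plau, above, beside the same 12.3% and 11.2%.

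Over all 5 lists, the 13 genes that DESeq2 called lower became 31 without NTG 1, 2 without NTG 2, 3 without NTG 3, 0 without TG 1, 20 without TG 2 and 1 without TG 3. The shares of all genes called in the same fits were 5.79%, 0.507%, 0.853%, 0.501%, 3.23% and 0.445%. These lists were written with earlier results of the same hearts known, and they share the 6 libraries with the 10 genes.

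**Figure D3:**
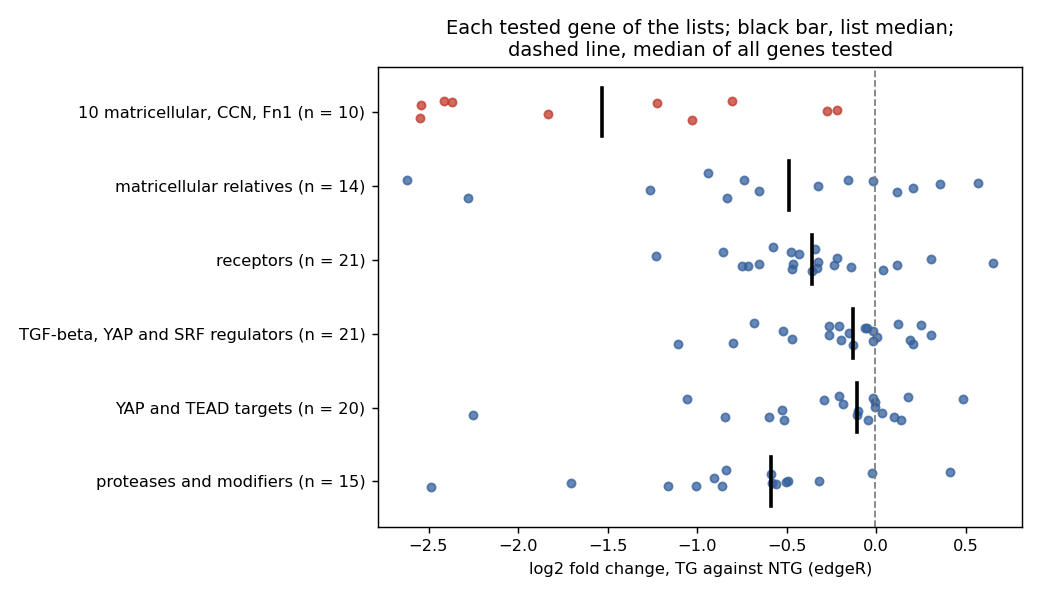
Fitted log2 fold change of TG against NTG (edgeR) for every tested gene of 6 lists, 1 point per gene, spread vertically for visibility, with the list's median as a black bar and the median of all genes tested as a dashed line. The 10 genes, chosen for this difference, have a median of -1.53, and the medians of the related lists lie between -0.59 and -0.11 with all 6 libraries, and nearer to or farther from 0 without single libraries, as given for each list.

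Other cell types were followed through lists of their markers. The 8 activated fibroblast markers had a summed level of 1268 to 2703 CPM in NTG and 404 to 971 CPM in TG, without overlap. Of these, 7 of 8 were lower, with a median log2 fold change of -1.69, or -1.95 without NTG 1 and -1.32 without NTG 2. In 5 of the 8, every TG heart lay below every control (all genes 12.3%), and in 1 above (11.2%). DESeq2 called 4 lower, beside 2.4% of all genes. Lox, a collagen cross-linking enzyme, was at 114, 613 and 177 CPM in NTG and 27.2, 41.4 and 14.1 CPM in TG, Cilp at 552, 975 and 817 against 149.8, 309.8 and 94.1 CPM, and Cthrc1 at 15.8, 51.5 and 9.19 against 1.87, 1.76 and 0.123 CPM. Acta2, which smooth muscle also makes, was the only one higher, at 88.4, 83.4 and 88.5 against 119.9, 113 and 114 CPM. Fap, with a log2 fold change of -0.27, and Meox1, at -0.52, overlapped between the groups.

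General fibroblast markers overlapped, with 4684 to 5053 CPM in NTG and 3586 to 4862 CPM in TG, and 7 of 8 lower with a median of -0.26, or -0.41 without TG 2. Gsn, which many cell types make, held 1314 to 2602 CPM of this sum and had a log2 fold change of 0.24. Dcn at -0.65 and Col1a1 at -1.12 were called lower by DESeq2, beside 2.4% of all genes, and did not overlap between the groups, while Tcf21 and Pdgfra, which define resident fibroblasts, were at -0.050 and -0.39. Macrophage markers summed to 844 to 1582 CPM in NTG and 640 to 877 CPM in TG, and 10 of 10 were lower with a median of -0.60, or -0.28 without NTG 2. Cardiomyocyte markers went the other way, at 19660 to 32720 CPM in NTG and 31380 to 38780 CPM in TG, with 8 of 8 higher and a median of 0.43, or 0.25 without NTG 2.

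Endothelial markers (1558 to 1833 CPM in NTG, 1626 to 1782 CPM in TG) and lymphocyte markers (3.06 to 6.07 and 4.39 to 8.29 CPM) overlapped between groups in their sums. By single genes, 3 of the 6 endothelial markers (Kdr, Tie1 and Egfl7) had every TG heart above every control, beside 11.2% of all genes, and Vwf had a log2 fold change of -0.81. The 3 lymphocyte markers tested of 6 had a median of 0.63, or 1.04 without NTG 1, 0.30 without NTG 3 and 0.39 without TG 1. Smooth muscle markers summed to 3794 to 5234 CPM and 3258 to 3895 CPM, a sum led by Des, which cardiomyocytes also make, at 3452 CPM on average in NTG and 2416 CPM in TG. By single genes, 4 of these 6 were higher in TG, with a median of 0.24 (0.11 without NTG 2), and DESeq2 called the contractile genes Myh11 and Cnn1 higher, beside 1.54% of all genes. The pressure overload markers Nppa, Nppb, Myh7 and Acta1 summed to 8237 to 12240 CPM in NTG and 4889 to 10780 CPM in TG, with 4 of 4 lower and a median of -0.69, or -1.28 without TG 2 and -0.44 without TG 3. The part of these marker lists, of the library labelled NTG 1 and of the atrial RNA in TG 3 in the levels of the 10 genes was not tested. In bulk tissue, fewer cells of a type and less RNA per cell cannot be told apart.

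**Figure D4:**
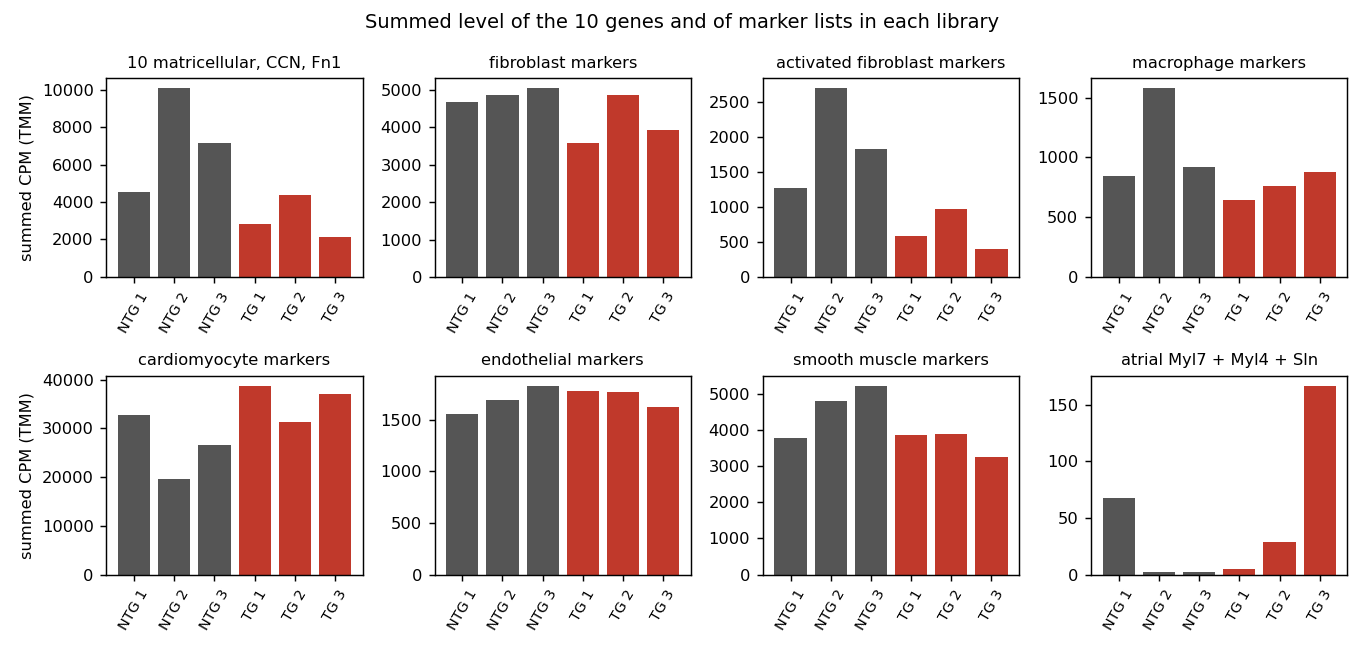
Summed TMM-normalized CPM of the 10 genes, of 6 marker lists and of 3 atrial genes in each of the 6 libraries (NTG grey, TG red), on linear axes from 0. The activated fibroblast markers order the hearts as the 10 genes do, with NTG 2 highest at 2703 CPM and TG 3 lowest at 404 CPM, while the atrial genes peak in TG 3 at 167 CPM and NTG 1 at 67.4 CPM.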

How the data were processed

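Left ventricular poly-A RNA from 3 TG mice and 3 NTG mice was sequenced on an Illumina Novaseq platform, and the heading of the methods calls this a microarray although RNA-seq steps are listed. After read cleaning and mapping, the authors predicted transcripts (StringTie) and used featureCounts to assign reads to genes, and they deposited the resulting raw counts, neither normalized nor pooled. The submitters' processing notes name HISAT2, DESeq2 and the build GRCh38, yet 54495 of the 54532 gene identifiers were in GENCODE mouse release M21 (GRCm38), 53585 with identical coordinates, among them all 10 genes described here. Whether counting used strand and how reads with several matches were treated was not given in the sources used here. FPKM values, sham-operated mice and the other mouse lines of the study were not analysed here, and 0 value columns lacked a matching library.

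The count model was fitted by edgeR 4.0.16 in R 4.3.3 (TMM, filterByExpr by group, robust quasi-likelihood fit, no covariate), and p was adjusted by Benjamini-Hochberg across every gene tested. A call needed a log2 fold change past 0.5 in size with an adjusted p under 0.05. Log2 CPM used a prior count of 2. Alternatives were RLE, upper quartile and library size scaling, keeping genes of any count, requiring 10 counts in all libraries, non-robust dispersions, a replicate block, DESeq2 1.42.0, limma-voom (limma 3.58.1) and each library left out. The fits were first tested on simulated data. The sequences of upstream windows came from RefSeq, and primers from the study's supplement.

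The 10 genes and all lists were chosen with earlier results of these data known. The lists were written from family and pathway knowledge. Named were all 10 genes, Hint2, the relatives Nov, Wisp3, Tgfbi and Smoc2, from each related list the called genes or else the 3 with the smallest unadjusted p, and the 8 genes with mean CPM of at least 5 closest to the mean profile. Markers, and genes that only DESeq2 called, were named after their values were seen. Depth limits Wisp1 and Spp1 most, and counting error and heart-to-heart spread were not separated for single genes. Over all genes tested, squared differences between libraries of a group were on average 15.5 to 71.2 times those of counting error alone.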

Additional observations from a re-analysis of the deposited data

How the results depend on the processing

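With edgeR, 0 of the 10 genes were called lower under 3 other scalings, 2 other filters and non-robust dispersions. The share of all genes called under these was not counted. With limma-voom 0 were, beside 0 of all genes. DESeq2 called 7 (2.4% of all genes) and the replicate block 5 (0.995% of all genes). The edgeR fits without 1 library called 0 to 2 (2 without NTG 1, beside 2.85%). DESeq2 without 1 library called 2 (without TG 3), 3 (TG 1) or 4 (NTG 2) to 7 of them. Of the related genes, 0 were called lower by edgeR, 13 by DESeq2, 10 with a replicate block and 0 to 13 over the fits without 1 library (13 without NTG 1, 1 without TG 2, where 0.0266% of all genes were), and DESeq2 called 0 (without TG 1) to 31 (NTG 1) of them without 1 library, with 20 without TG 2, and 0 to 1 higher. Whether the replicate numbers pair the samples was not given in the sources used here. Deviations from the group means correlated at 0.0807, 0.173 and -0.252 between hearts of the same number. Between hearts of different numbers they correlated at -0.253 to 0.167, and 3 hearts per group cannot settle the question. The log2 fold change of Cyr61 ran from -0.81 without TG 2 to 0.044, in the other direction, without TG 3, and the directions of the other 9 genes held under all 15 alternatives. The median of the 10 stayed between -1.97 and -1.10. The cause of these changes was not tested. DESeq2 without 1 library, and the counts of separate groups with library size scaling or without 1 library, were added after seeing the data. With 3 hearts per group, and 16 to 59 counts of Wisp1 in TG, the size of single differences is imprecise.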
